A study of Mus musculus with 12 samples.

Results

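Livers of obese ob/ob mice were compared with livers of fasted lean mice, all given the same virus for fumarate hydratase (FH). The comparison rests on 6 of the 12 RNA libraries of the series, chosen by their labels alone: 3 libraries of ob/ob mice and 3 of C57BL/6 mice. Both groups had received AAV8-FH, an adeno-associated virus described as liver-specific, by tail vein at 6 to 8 weeks of age. The C57BL/6 mice were fasted for 24 h after 1 month (fasted FH libraries), and the ob/ob mice were kept on a high-fat diet for 1 month (ob/ob FH libraries). Genotype, diet and fasting therefore differ together between the groups, and their parts cannot be told apart. The sources used here name neither the promoter of the virus nor the species of the delivered sequence, and say nothing of the diet of the lean mice or of whether the ob/ob mice were fed at collection. The other 6 libraries, from the same models given the vector alone, are used below to test whether a difference between the models was of another size without FH. The labels do not say whether each library is a different mouse, so the p-values cover variation among these libraries only, part of which may be technical.

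The ob/ob mouse lacks functional leptin, the fat-tissue hormone that restrains feeding, and becomes obese with high insulin and a fatty liver. In a fed liver, insulin and carbohydrate act through SREBP-1c and ChREBP, transcription factors that switch on the making of fatty acids, and SREBP-2 drives cholesterol synthesis when sterols are low. In a fasted liver, insulin falls and glucagon rises, fatty acids from adipose tissue activate the receptor PPAR-alpha, and the liver oxidises them, makes ketone bodies and makes glucose from amino acids and lactate. FH, encoded by Fh1 in the mouse, turns fumarate into malate in the citrate cycle.

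The fasted FH libraries held 19107050 to 25873379 counts and the ob/ob FH libraries 21632289 to 23506015. The labels name liver as the tissue but also primary hepatocytes, so whether whole liver or isolated hepatocytes were sequenced is not settled, and "livers" below stands for either. The hepatocyte gene Alb was the most abundant gene in all 6, with 7.9% to 8.97% of the counts in the fasted and 9.74% to 11.1% in the ob/ob libraries. Sex markers differed along with the groups. Xist had 2242 to 4992 counts in the 3 ob/ob FH libraries, where the Y-linked genes Uty, Kdm5d, Eif2s3y and Ddx3y had 0, a level of no more than 0.128 to 0.139 CPM (3 counts per library, counting error only). In the fasted FH libraries Xist had 1 to 24 counts and the Y-linked genes 2304 to 3180, and all 6 vector libraries were Y-positive, with 4001 to 5181 counts. The labels give no sex. Since the 3 ob/ob FH libraries alone are Xist-positive and Y-negative, whether they carry the right labels is in doubt as well as the sex of the mice, and neither was tested. Sex markers, genotype, diet and fasting cannot be told apart here, so only autosomal genes are described, except in the sums of cell type markers. The FH libraries also stood apart from the 6 vector libraries, which held 12231828 to 14884323 counts, with 3.7% to 5.57% in Alb and 0.885% to 1.2% in long noncoding genes beside 0.283% to 0.349% in the FH libraries. Malat1, a nuclear noncoding RNA, stood at 472 to 687 CPM of library totals in the vector, 36.2 to 58.4 CPM in the fasted FH and 10.5 to 30.1 CPM in the ob/ob FH libraries. Levels are CPM, counts scaled to a fixed library size, on totals corrected by TMM, a scaling that sets the typical gene near no change, and differences are log2 fold changes, ob/ob FH minus fasted FH, with their standard error (SE). Some genes named below overlap a gene on the opposite strand, among them Srebf1 (Rai1), Pklr (Hcn3), Nr1d1 (Thra), Dbp (Sphk2) and Pltp (Ctsa), and since no source used here names the strand mode of the authors' counting, the counts of such partners cannot be told apart.

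Of 12788 autosomal genes tested, 6592 (51.5%) differed at a Benjamini-Hochberg adjusted p under 0.05 in edgeR's quasi-likelihood test, which is what "called" means below. Of all genes tested, 26.9% were called higher (3435 genes) and 24.7% lower (3157 genes) in the obese group. Changes of at least 2-fold leaned to one side, with 1995 genes higher and 677 lower. The median over all autosomal genes was -0.0043. Scaling to library totals in place of TMM moved that median to 0.18 and gave 4407 higher and 1848 lower calls, so that 70.5% of the calls were higher in place of 52.1%.

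The largest rises were mostly of liver genes that are more abundant in female mice, with a lipid droplet gene, a macrophage gene, Chrna4 and Sprr1a beside them. The largest falls were mostly of major urinary proteins and other genes more abundant in male mice. Among the 12 largest rises, Cyp2b9, a cytochrome P450, stood at 2.72, 3.98 and 3.47 CPM in the fasted and at 571, 562 and 542 CPM in the ob/ob libraries. The ob/ob libraries were closely alike and far above every fasted library (log2 7.36, SE 0.16, edgeR adjusted p = 7.76e-10). Cidea, a droplet-fusing protein of brown fat and of fatty liver, went from 0.111, 0.0517 and 0.0418 CPM to 19.3, 32.8 and 23.0 CPM (log2 8.46, SE 0.37). Its fasted values rest on single counts. Cyp2b13 (log2 8.82), Cyp2a4 (7.14) and the organic anion carrier Slc22a27 (6.94) were also close to absent in the fasted libraries. Hao2, a peroxisomal hydroxyacid oxidase, had 2 counts in the fasted and 2018 in the ob/ob libraries, a ratio of 846 with a 95% counting interval of 234 to 6990. Chrna4, a nicotinic receptor subunit, had 1 count against 467, a ratio of 391 (69.9 to 15500). Sprr1a, a cornified-envelope protein, had 0 counts in the fasted libraries and 1.14, 14.3 and 5.45 CPM in the ob/ob libraries, at least 46.7-fold higher against 3 counts per library. A further group varied widely within the ob/ob libraries. The sulfotransferase Sult2a2 stood at 174, 3.54 and 120 CPM, Sult2a1 at 56.0, 0.64 and 48.6 CPM and A1bg at 131, 23.9 and 13.1 CPM, against at most 0.672 CPM in any fasted library. Mmp12, a macrophage elastase, stood at 1.81, 12 and 6.84 CPM against at most 0.167 CPM.

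Mup7, a major urinary protein, fell the most. It stood at 403, 1480 and 819 CPM in the fasted and at 0.253, 0.128 and 0 CPM in the ob/ob libraries (log2 -12.77, SE 0.69, edgeR adjusted p = 2.90e-07). Mup11 (-9.00), Mup14 (-8.37), Mup12 (-6.48), Mup1 (-6.05) and Mup15 (-5.90) were also among the 12 largest falls. Serpina1e, an alpha-1 antitrypsin, went from 6760, 8320 and 5480 CPM to 21.6, 6.95 and 4.67 CPM (log2 -9.28, SE 0.58). Every ob/ob library was far below every fasted library for these genes. Cyp4a12b, a fatty acid hydroxylase, fell by 8.90 on the log2 scale. Slco1a1, an uptake carrier for organic anions, fell too (log2 -6.71). Igfbp2, a binding protein of insulin-like growth factors, went from 1180, 1060 and 1450 CPM to between 10.4 and 39.2 CPM (log2 -5.72). Scara5, a ferritin receptor, fell from a lower level (log2 -5.59). Eif4ebp3, a brake on translation, had 443 counts against 1, a ratio of 529 (94.4 to 20900). The Mup, Cyp2b, Cyp4a, Sult2a and Serpina1 genes have near-identical copies, between which the authors' counting could split reads, so their single-gene values are uncertain.

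Single libraries moved the size of several of these values by over 1.5 times without ending a call. Without fasted FH replicate 2, Cyp2b13 stood at 13.32, A1bg at 10.04, Sult2a2 at 9.16, Sult2a1 at 8.82 and Mup15 at -5.10 on the log2 scale. Without fasted FH replicate 1, Mmp12 stood at 7.91 in place of 6.59 and Scara5 at -4.98, and without replicate 3 Cyp2b13 stood at 8.16 and Mmp12 at 5.92. The fitted values of genes given above as ratios or bounds moved too: Sprr1a from 10.28 to 9.20 without ob/ob FH replicate 2, its highest library, Hao2 from 9.49 to 8.85 without fasted FH replicate 3, Chrna4 from 8.20 to 10.22 without fasted FH replicate 1 and Eif4ebp3 from -8.56 to -10.34 without ob/ob FH replicate 2. Without ob/ob FH replicate 1, A1bg stood at 6.77 in place of 8.37, Sult2a2 at 7.53 in place of 8.22, Mup7 at -13.73, Serpina1e at -10.21, Mup11 at -10.19, Mup14 at -10.66, Mup15 at -7.90 and Igfbp2 at -6.33. Without ob/ob FH replicate 2, Mmp12 stood at 5.93, and without replicate 3 Mup7 stood at -12.16 and Mup1 at -6.91.

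**Figure D1:**
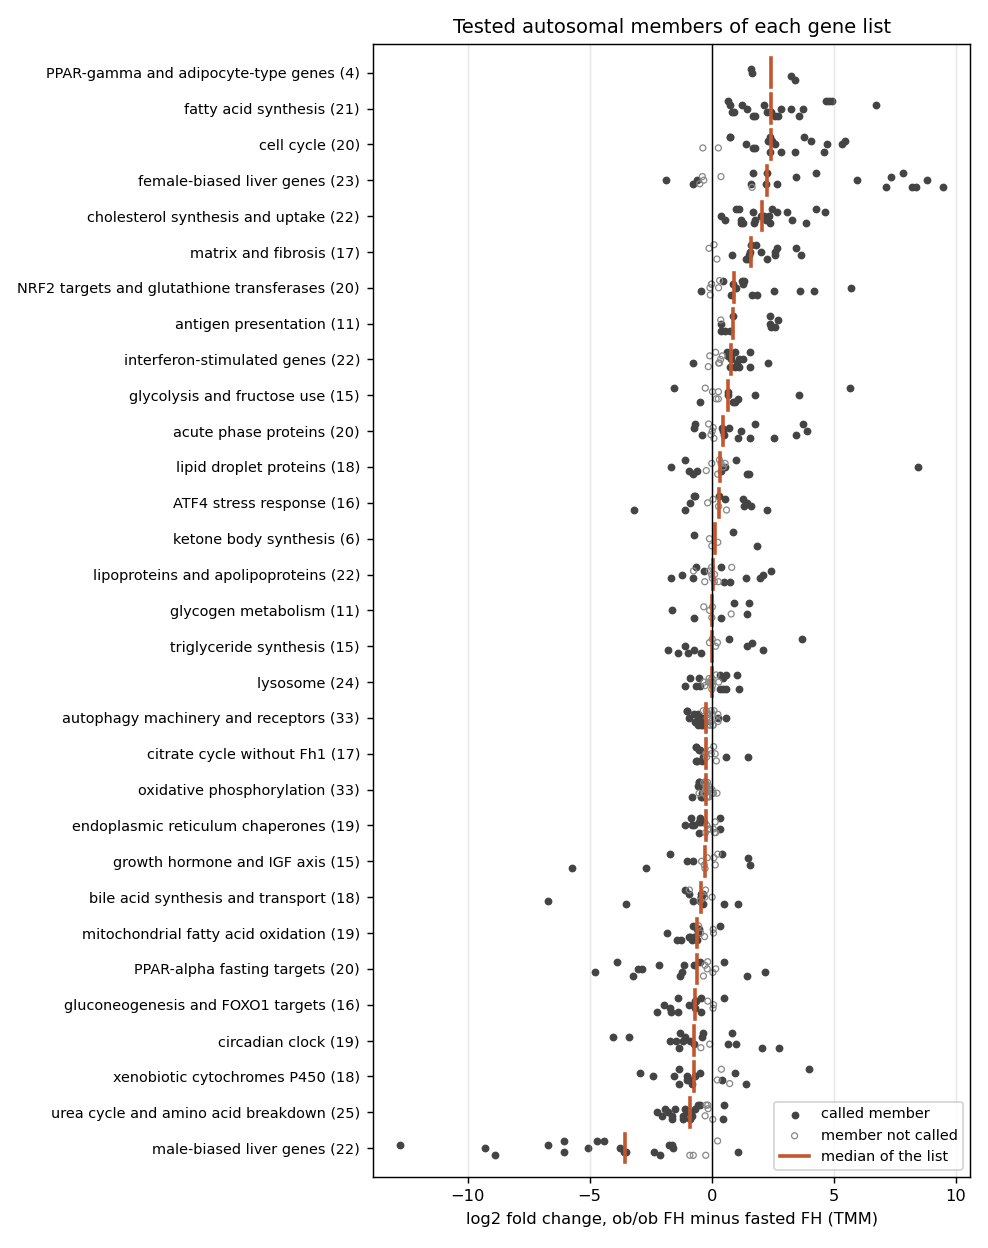
Log2 fold change of ob/ob FH minus fasted FH (x axis) for the tested autosomal members of 31 gene lists (y axis, number of members in brackets), with called members filled and the list's median as a bar. Fatty acid synthesis (median 2.45), cell cycle (2.43) and cholesterol (2.08) lie to the right, and male-biased liver genes (-3.55) and amino acid breakdown (-0.89) to the left.

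Genes that make fatty acids were higher in the ob/ob livers without exception. Of 21 tested genes of the list, 21 were called higher and 0 lower, with a median of 2.45 beside -0.0043 over all genes. Srebf1, the gene of SREBP-1, stood at 13.4, 17.3 and 11.1 CPM in the fasted and at 175, 181 and 196 CPM in the ob/ob libraries (log2 3.73, SE 0.16, edgeR adjusted p = 6.83e-08). The groups lay far apart with no overlap. Fasn, which builds palmitate, went from 49.9, 73.0 and 44.1 CPM to 1570, 2020 and 1530 CPM, a 30.7-fold rise (log2 4.94, SE 0.22). Scd1, which puts the first double bond into stearate, went from 1220, 1080 and 749 CPM to 27500, 37200 and 20200 CPM, a 27.9-fold rise (log2 4.80, SE 0.29). Acly, which makes cytosolic acetyl-CoA, rose 9.56-fold, Acaca, which carboxylates it, 6.57-fold, and Elovl6, which lengthens palmitate, 5.46-fold. Thrsp, a lipogenic nuclear protein, rose 25.4-fold. Pnpla3, a droplet lipase whose gene answers to SREBP-1c, had 2 counts in the fasted and 294 in the ob/ob libraries, a ratio of 123 (33.8 to 1020). It passed the filter only through the ob/ob libraries and could only be called higher, so it adds nothing to the count of 21. Pgd of the pentose phosphate pathway, a source of the NADPH that synthesis needs, rose 7.22-fold.

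Genes of glycolysis and fructose use, which supply carbon for these pathways, were in part higher. Of 15 genes 8 were called higher, 5 were not called and 2 were lower (median 0.66). Pklr, the liver pyruvate kinase, stood at 42.1, 54.1 and 35.0 CPM in the fasted and at 456, 541 and 575 CPM in the ob/ob libraries (log2 3.58). Khk, which phosphorylates fructose, rose 3.46-fold. The 2 lower genes were Aldoa (-0.48) and Pfkfb3 (-1.52), chosen for naming after their values were seen. That count was 1 on library totals and without fasted FH replicate 3. In glycogen metabolism 4 of 11 genes were higher and 2 lower. Beside 26.9% and 24.7% over all genes, these small counts are no result about the list. Gys2, the glycogen synthase of liver, stood at 538, 451 and 642 CPM against 155, 163 and 205 CPM, a 3.12-fold fall, while Pygl, which breaks glycogen down, rose 2.86-fold and the branching enzyme Gbe1 2.74-fold.

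Genes of cholesterol synthesis and uptake were higher in the ob/ob livers as well. All 22 tested autosomal genes were called higher, with a median of 2.08 and a range of 0.39 to 4.65. Mvd, which makes the first isoprenoid unit, stood at 1.17, 1.65 and 1.63 CPM in the fasted and at 43.8, 43.5 and 25.9 CPM in the ob/ob libraries (log2 4.65, SE 0.25, edgeR adjusted p = 2.72e-07). Fdps, which joins such units, went from 19.5, 22.2 and 25.4 CPM to 467, 502 and 336 CPM (log2 4.28, SE 0.18). In both genes ob/ob FH replicate 3 was the lowest of its group and still far above the fasted libraries. Hmgcs1, which makes HMG-CoA for the pathway, rose 9.78-fold from 38.0, 34.8 and 48.2 CPM to 473, 431 and 282 CPM. Sc5d, a late desaturase, rose 5.07-fold. Insig1, the endoplasmic reticulum protein that holds SREBP back when sterols are plentiful, rose 5.48-fold from 79.9, 56.3 and 59.8 CPM to 423, 348 and 303 CPM. Srebf2, the gene of SREBP-2, rose 2.02-fold.

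Promoters of these genes were searched on both strands for TCACCCCAC, a sterol response element that SREBP proteins bind, and for the E-box CACGTG, which clock factors, ChREBP and SREBP-1 bind among others. The windows were the 250 bases before each RefSeq start site (GRCm38.p6), which the table of sequences held for 14 of the 22 cholesterol genes and 18 of the 21 fatty acid genes. The sterol element was present in 1 of 17 cholesterol promoters (5.88%), that of Hmgcs1, in 0 of 24 fatty acid promoters and in 0.496% of all 32851 promoters. The E-box was present in 4 of the 17 (23.5%), of Dhcr7, Hsd17b7, Insig1 and Sc5d, in 3 of the 24 (12.5%) and in 6.02% of all promoters. A match is a description of these letters alone. Hmgcs1 and Insig1 are shown as picked examples. Each holds a match and rose over 5-fold, as did Sc5d, which is not shown. The window of Hmgcs1 lies at chr13:119690101-119690350 on the plus strand, with the sterol element in capitals starting 137 bases before the gene's start, and that of Insig1 at chr5:28071162-28071411 on the plus strand, with the E-box in capitals starting 101 bases before it.
Hmgcs1: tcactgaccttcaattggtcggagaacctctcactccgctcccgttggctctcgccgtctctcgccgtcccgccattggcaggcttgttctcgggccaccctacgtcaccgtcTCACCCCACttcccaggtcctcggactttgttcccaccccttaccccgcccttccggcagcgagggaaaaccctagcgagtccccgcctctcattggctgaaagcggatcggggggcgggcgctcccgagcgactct
Insig1: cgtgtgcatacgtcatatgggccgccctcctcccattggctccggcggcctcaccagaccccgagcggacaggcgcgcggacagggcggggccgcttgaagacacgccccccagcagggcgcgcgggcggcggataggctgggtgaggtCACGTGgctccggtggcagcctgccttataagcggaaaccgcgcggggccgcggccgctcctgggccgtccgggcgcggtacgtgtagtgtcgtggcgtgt

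The making and storing of triglyceride did not move one way. In triglyceride synthesis 5 of 15 genes were higher and 6 lower (median 0.03), beside 26.9% higher and 24.7% lower over all genes. Mogat1, an acyltransferase that is low in normal liver, stood at 1.33, 0.569 and 1.42 CPM in the fasted and at 14.4, 14.4 and 14.8 CPM in the ob/ob libraries (log2 3.69, SE 0.23, edgeR adjusted p = 9.11e-07). Acyl-CoA synthetases split, with Acsl3 4.30-fold and Acsl5 2.73-fold higher and Acsl1, the main one of liver, 2.61-fold lower. Lpin1, a phosphatidate phosphatase and partner of PPAR-alpha, stood at 404, 538 and 366 CPM against 127, 121 and 127 CPM, a 3.49-fold fall. Of 18 lipid droplet genes 6 were higher and 5 lower (median 0.34). These shares lie near those over all genes (26.9% and 24.7%), so the count is no result about this list. With all 12 libraries in the model 3 were higher. Beside Cidea, the coat proteins Plin3 (log2 1.00) and Plin4 (1.53) were higher and Plin5, which ties droplets to mitochondria, was lower (-0.94). The Plin4 call was lost with 12 libraries (adjusted p = 0.0958). Plin2, the main droplet coat of liver, stood at 929, 548 and 958 CPM against 989, 1090 and 1110 CPM and was not called (log2 0.39, SE 0.19, edgeR adjusted p = 0.105), although the groups did not overlap. It was called on library totals (0.58, adjusted p = 0.0230) and with no filter on low counts (0.39, adjusted p = 0.0105). Cidec stood at 72.4, 17.0 and 61.5 CPM against 45.7, 77.1 and 66.1 CPM and was not called (0.32, adjusted p = 0.511), except with no filter on low counts (0.33, adjusted p = 0.0276). Without fasted FH replicate 2, its lowest library, it stood at -0.095. Pnpla2, the lipase ATGL that opens the breakdown of droplets, stood at 180, 163 and 229 CPM against 53.0, 61.8 and 64.6 CPM, a 3.19-fold fall (log2 -1.67, SE 0.14, adjusted p = 5.91e-06). Cd36, a fatty acid uptake protein, rose from 67.0, 38.6 and 135 CPM to 362, 349 and 333 CPM (log2 2.12, and 2.71 without fasted FH replicate 3). The adipocyte-type genes that passed the filter were all 4 higher, with Pparg, the receptor that drives fat cell genes, 3.07-fold and Fabp4 3.11-fold higher. Cfd, of the same list, rests on under 3 CPM in every library (log2 3.27). It stood at 4.13 without fasted FH replicate 1, 2.58 without replicate 3 and 2.37 without ob/ob FH replicate 1. Cfd passed the filter only through the ob/ob libraries, so the count of 4 higher genes is not a result by itself. Car3, a carbonic anhydrase of fat and liver, rose 10.5-fold. The other 6 members, Plin1, Adipoq, Lep, Retn, Adig and Lgals12, had at most 5 counts in any of the 6 libraries and were not tested.

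Genes that burn fatty acids were higher in the fasted livers. Of 19 genes of mitochondrial oxidation 13 were lower in the ob/ob livers and 1, Hadh, was higher (log2 0.34), with a median of -0.59. The count of higher genes was 0 with 12 libraries or without fasted FH replicate 2, and 3 on library totals. Cpt1a, which commits long-chain fatty acids to mitochondria, stood at 1300, 1060 and 1250 CPM in the fasted and at 448, 529 and 533 CPM in the ob/ob libraries (log2 -1.26, SE 0.13, edgeR adjusted p = 2.18e-05). Every fasted library was above every ob/ob library. Slc22a5, the carnitine carrier, fell 3.55-fold, Eci2, an isomerase for unsaturated chains, 2.65-fold, Acadm 1.91-fold and Hadhb 1.83-fold. Of 20 targets of PPAR-alpha 11 were lower and 3 higher (median -0.60), over a range of -4.77 to 2.19. Cyp4a10, a fatty acid omega-hydroxylase, went from 8630, 6930 and 10200 CPM to 817, 502 and 444 CPM, a 14.6-fold fall (log2 -3.87, SE 0.26). Cyp4a14 went from 11300, 9940 and 13600 CPM to 1400, 1200 and 1160 CPM, a 9.25-fold fall. Cyp4a31 (-4.77), Cyp4a32 (-2.87), the thioesterase Acot1 (-3.04) and the peroxisomal enzyme Ehhadh (-2.16) fell as well. The Cyp4a copies are near-identical, so how far each fell is uncertain. The receptor's own gene, Ppara, stood at 209, 180 and 111 CPM against 87.0, 128 and 87.3 CPM, groups that overlap (log2 -0.73, adjusted p = 0.0162). Its call was lost on library totals (-0.54, adjusted p = 0.0681), without fasted FH replicate 1 (-0.54, adjusted p = 0.0658), and when ob/ob FH replicate 1 (-0.64, adjusted p = 0.0631) or 3 (-0.63, adjusted p = 0.0601) was left out. The 3 higher members were Fabp1 (0.51), Pdk4 and Fgf21, and 1 was higher with 12 libraries. Pdk4, which shuts pyruvate out of the citrate cycle, stood at 5.0, 3.62 and 7.99 CPM against 26.9, 31.1 and 18.9 CPM, a 4.57-fold rise. Fgf21, the fasting hormone of liver, stood at 5.84, 2.38 and 6.48 CPM against 8.94, 11.3 and 19.7 CPM (log2 1.43, adjusted p = 0.00566), a call lost with 12 libraries (adjusted p = 0.123). Of 6 ketone body genes 1 was lower and 2, the exporters Slc16a1 (log2 0.88) and Slc16a6 (1.86), were higher. Beside 24.7% lower and 26.9% higher over all genes, these small counts are no result about the list.

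The making of glucose and the breakdown of amino acids were lower in the ob/ob livers. Of 16 genes of gluconeogenesis and of FOXO1, the transcription factor that insulin shuts out of the nucleus, 12 were lower and 1 was higher (median -0.69). Pck1, which makes phosphoenolpyruvate, stood at 4590, 5170 and 4400 CPM in the fasted and at 2000, 1710 and 1760 CPM in the ob/ob libraries (log2 -1.37, SE 0.14, edgeR adjusted p = 2.01e-05). Ppargc1a, a coactivator of fasting genes, fell 3.88-fold from 27.0, 25.3 and 35.0 CPM to 6.79, 7.55 and 8.19 CPM. Got1, which moves amino groups in the cytosol, fell 4.66-fold, Slc37a4, the glucose-6-phosphate carrier, 2.57-fold, and Igfbp1, an insulin-repressed binding protein, 3.23-fold. The gene that went the other way was G6pc, the last step of glucose release, at 230, 266 and 252 CPM against 415, 305 and 349 CPM (log2 0.52, adjusted p = 0.00595), a call lost with 12 libraries (adjusted p = 0.130). In the urea cycle and amino acid list 18 of 25 genes were lower and 2, Glud1 (0.47) and Uroc1 (0.50), were higher (median -0.89), with 1 higher in the 12-library model. Cps1, the entry enzyme of the urea cycle, went from 10600, 11300 and 9050 CPM to 2920, 2560 and 2170 CPM, a 4.04-fold fall. Asl, whose product is fumarate, went from 2860, 2290 and 2940 CPM to 597, 558 and 577 CPM, a 4.67-fold fall (log2 -2.22, SE 0.14, adjusted p = 7.26e-07). Arg1, which releases urea, fell 2.25-fold, the tryptophan dioxygenase Tdo2 3.75-fold and the histidase Hal 2.86-fold. The groups did not overlap in any of these genes.

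The difference in the delivered gene itself did not pass the test. Fh1 stood at 728, 557 and 618 CPM in the fasted FH and at 505, 505 and 660 CPM in the ob/ob FH libraries, which overlap (log2 -0.19, SE 0.14, edgeR adjusted p = 0.293), and on library totals the value was 0.0016. How far transcripts of the virus enter this count is not known, since the species of the delivered sequence is not named. In GENCODE M21 Fh1 overlaps Kmo on the opposite strand. Among 17 other citrate cycle genes 8 were lower and 2 higher (median -0.24), and on library totals 6 and 4. Cs, which makes citrate, rose from 77.9, 89.2 and 92.7 CPM to 248, 243 and 238 CPM (log2 1.49, SE 0.10), and Suclg2 rose 1.48-fold. Ogdh, a subunit of the 2-oxoglutarate dehydrogenase, fell 1.54-fold. In oxidative phosphorylation 0 of 33 genes were higher and 11 lower, by at most 0.79 on the log2 scale (median -0.24), with Ndufs7 (-0.79), Ndufa4 (-0.54), Cox7a2 (-0.53) and Uqcrfs1 (-0.41) among them. Over all genes 24.7% were called lower and 26.9% higher, so the 11 lower genes are no result about this list by themselves. The counts moved with the setting: 3 were lower and 2 higher on library totals (median -0.063), 4 were lower when ob/ob FH replicate 2 and 5 when replicate 3 was left out. The call of Uqcrfs1 was lost on library totals (adjusted p = 0.0869) and without ob/ob FH replicate 2 (adjusted p = 0.0554).

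The series asks about lipophagy, the breakdown of lipid droplets through autophagy, and its kinase ULK1. Ulk1 stood at 58.6, 54.1 and 46.5 CPM in the fasted and at 54.9, 64.3 and 70.8 CPM in the ob/ob libraries. The groups overlap and the gene was not called (log2 0.26, SE 0.12, edgeR adjusted p = 0.103), but it was on library totals (0.45, adjusted p = 0.0208) and without ob/ob FH replicate 1 (0.35, adjusted p = 0.0449). Of 33 genes of autophagy 15 were lower in the ob/ob livers and 2 higher (median -0.22), with 10 and 3 on library totals. Map1lc3b, the LC3 protein that coats autophagosomes, stood at 246, 213 and 243 CPM against 119, 119 and 115 CPM (log2 -0.99, SE 0.10, adjusted p = 2.00e-05). Rb1cc1, the scaffold FIP200 of the ULK complex, stood at 39.5, 38.4 and 34.9 CPM against 18.1, 18.7 and 19.9 CPM (log2 -0.99). Both genes were close to 2-fold lower in every ob/ob library. Atg2a, a lipid transfer protein (-0.91), the receptor Optn (-0.69) and the LC3 relative Gabarapl1 (-0.63) fell too. The 2 higher genes, named after their values were seen, were Atg101 of the ULK complex (0.57) and the lipid kinase Pik3c3 (0.26, adjusted p = 0.0485). The call of Pik3c3 was lost without any single library (adjusted p from 0.0736 to 0.147), with DESeq2 (0.0870), with no filter (0.136), with 12 libraries (0.352) and with the replicate block (0.0591). The receptor p62, from Sqstm1, stood at 619, 511 and 662 CPM against 587, 628 and 638 CPM and was not called (log2 0.05, adjusted p = 0.761). Of 24 lysosomal genes 8 were higher and 5 lower (median 0.02), with 5 higher without ob/ob FH replicate 3 and 4 with 12 libraries. Over all genes 26.9% were higher and 24.7% lower, so this count is no result about the lysosomal list. Lipa, the acid lipase that digests droplets in lysosomes, stood at 204, 186 and 223 CPM against 443, 475 and 421 CPM (log2 1.13, SE 0.11, adjusted p = 1.68e-05). The protease Ctsb was 2.05-fold higher and Ctsl 2.13-fold lower, and Npc1, which exports cholesterol from lysosomes, was 1.84-fold lower. Ctsb overlaps Fdft1 on the opposite strand. Tfeb, a master factor of lysosomal genes, stood at 7.0, 4.71 and 3.76 CPM against 4.26, 3.54 and 4.6 CPM and was not called (-0.31, adjusted p = 0.295).

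**Figure D2:**
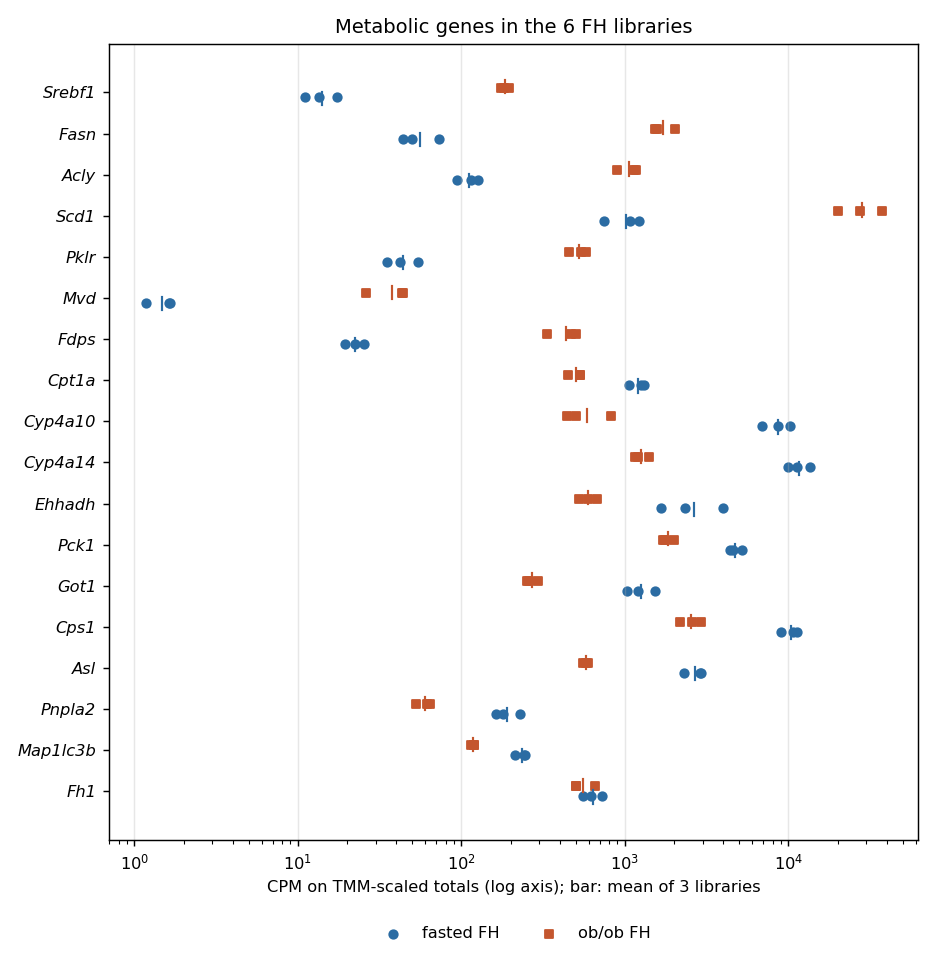
CPM on TMM-scaled totals (x axis, log scale) of 18 metabolic genes (y axis) in each of the 3 fasted FH and 3 ob/ob FH libraries, with the group mean as a bar. Lipogenic genes such as Fasn (44.1 to 73.0 against 1530 to 2020 CPM) and fasting genes such as Cyp4a10 (6930 to 10200 against 444 to 817 CPM) lie apart in opposite directions, and Fh1 overlaps.

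Clock genes differed between the groups in both directions. The molecular clock is a loop in which ARNTL (BMAL1) and its partners CLOCK and NPAS2 switch on the Per and Cry repressors and output factors such as DBP and TEF. Of 19 genes 12 were lower in the ob/ob livers and 5 higher (median -0.73), with 3 higher in the 12-library model. Arntl stood at 2.95, 1.34 and 1.59 CPM in the fasted and at 11.6, 8.49 and 4.06 CPM in the ob/ob libraries (log2 2.05, SE 0.39, edgeR adjusted p = 0.00130). Npas2 was higher as well (2.78, and 3.59 without fasted FH replicate 3). The Per genes and several output factors were lower. Per1 stood at 28.3, 32.8 and 23.5 CPM against 10.1, 12.5 and 16.5 CPM (log2 -1.11), Per2 fell by 1.31 and the output factor Tef by 1.44 on that scale. Dbp stood at 49.7, 35.4 and 37.5 CPM against 9.86, 13.4 and 30.5 CPM (log2 -1.18, and -1.81 without ob/ob FH replicate 3). Per3 stood at 13.8, 10.5 and 12.4 CPM against 2.07, 3.92 and 8.50 CPM (log2 -1.33, and -2.03 without that replicate). Within the ob/ob group replicate 3 had the lowest Arntl and the highest Per1, Per2, Per3 and Dbp. Ciart, a repressor of the loop, went from 34.2, 22.4 and 17.0 CPM to 0.548, 1.66 and 2.24 CPM, a 16.3-fold fall, and the clock-controlled protease Usp2 from 93.1, 74.1 and 56.1 CPM to 4.97, 5.63 and 10.4 CPM, a 10.6-fold fall. Nr1d2 fell by 0.90 on the log2 scale. The REV-ERB gene Nr1d1 (0.66), Nfil3 (0.82) and Bhlhe40 (0.99) were higher. Bhlhe40 lost its call without fasted FH replicate 2 (adjusted p = 0.0503), without ob/ob FH replicate 3 (0.0517), with DESeq2 (0.0570) and with 12 libraries (0.0905). With 12 libraries, Nfil3 (adjusted p = 0.0795), Dbp (0.214) and Per3 (0.0877) lost theirs too. No source used here gives the hour at which the livers were taken, and its part in these values was not tested.

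The E-box CACGTG was present in 6 of 21 promoters (28.6%) of 16 matched clock genes, of Bhlhe41, Ciart, Cry1, Per1 and Tef, beside 6.02% of all promoters. Ciart is shown because it fell the most of the list and holds 3 matches. Its window lies at chr3:95882229-95882478 on the minus strand of GRCm38.p6, with the E-boxes in capitals, the first starting 116 and the last 44 bases before the gene's start.
Ciart: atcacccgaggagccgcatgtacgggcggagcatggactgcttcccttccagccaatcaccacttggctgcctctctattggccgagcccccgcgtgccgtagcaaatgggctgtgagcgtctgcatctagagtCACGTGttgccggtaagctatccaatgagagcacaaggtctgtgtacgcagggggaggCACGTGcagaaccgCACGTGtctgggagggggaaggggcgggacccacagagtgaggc

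**Figure D3:**
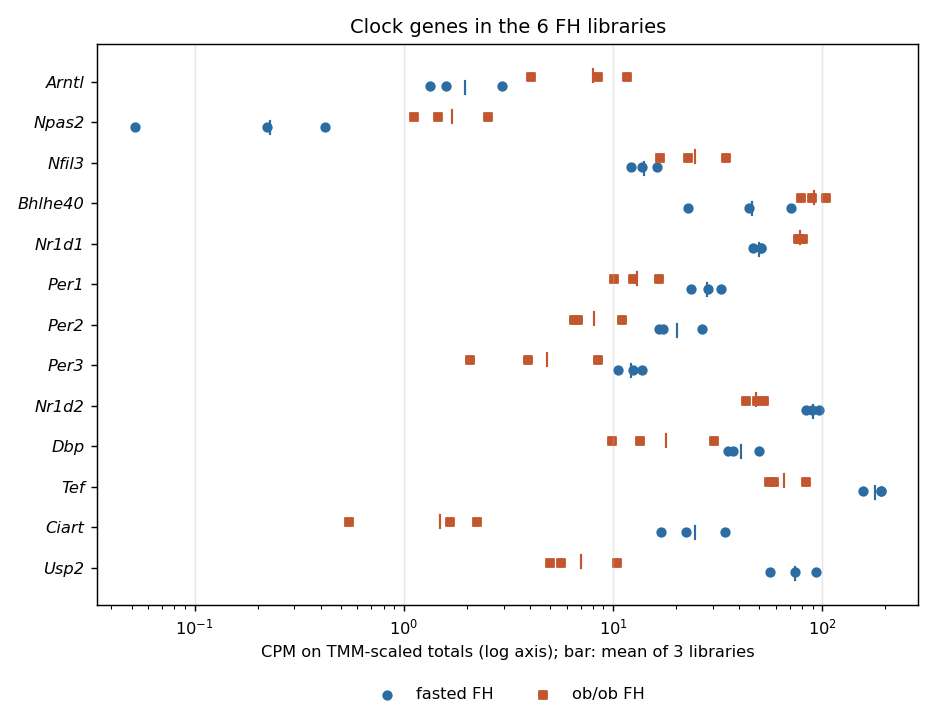
CPM on TMM-scaled totals (x axis, log scale) of 13 clock genes (y axis) in each of the 3 fasted FH and 3 ob/ob FH libraries, with the group mean as a bar. Arntl and Npas2 lie higher and Per1, Per2, Per3, Dbp, Tef, Ciart and Usp2 lower in the ob/ob libraries, with no overlap in these genes.

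Genes that differ between the sexes in mouse liver, which follow the pattern of growth hormone, moved together with the sex markers. Of 23 tested genes listed as female-biased 15 were higher in the ob/ob livers and 3 lower (median 2.28), and of 22 listed as male-biased 17 were lower and 1 higher (median -3.55). Some members were near 0 in 1 group, such as Hao2 and Cyp2b13 in the fasted and Mup7 and Hsd3b5 in the ob/ob libraries. These passed the filter only through the other group and could be called that way only. The counts are therefore in part set by the filter. Cyp2d9, a male-biased P450, stood at 1820, 2210 and 2220 CPM against 148, 127 and 184 CPM (log2 -3.76, SE 0.17, edgeR adjusted p = 1.06e-07). Mup20, the pheromone darcin, went from 3490, 4610 and 3170 CPM to 108, 154 and 77.7 CPM (log2 -5.05), and Cyp4a12a from 212, 312 and 315 CPM to 6.53, 16.6 and 9.39 CPM (log2 -4.69). Hsd3b5, a steroid reductase of male liver, had 182 counts against 3, a ratio of 72.4 (24.4 to 354). Its call was lost with 12 libraries (adjusted p = 0.163). The male-biased gene that was higher was Serpina12 (1.08), a call also lost with 12 libraries (0.131), and the female-biased genes that were lower were Fmo2 (-1.89), Nipal1 (-0.78) and Trim24 (-0.60). Without fasted FH replicate 2 the lower female-biased genes numbered 5. Ntrk2, the receptor TrkB, rose from 0.611, 0.672 and 0.125 CPM to 24.0, 25.5 and 34.2 CPM (log2 5.95). Replicate 2 was the lowest ob/ob library for both Sult2a1 and Sult2a2. Cyp17a1, a steroid hydroxylase, rose 3.26-fold, a call lost with 12 libraries (adjusted p = 0.0530), and Cyp2b10 by 2.7 on the log2 scale (2.01 without ob/ob FH replicate 1).

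The vector libraries give the same contrast between the models with Y-linked counts on both sides. There 9.32% of 14448 autosomal genes were called higher and 8.24% lower in obesity, and the male-biased list had a median of -0.59, with 3 of 22 lower and 2 higher, beside -3.62 for FH in the same 12-library model. The difference between the contrasts was called negative for 8 of these 22 genes and positive for 0, where 3.71% of all genes were called negative and 4.82% positive. The female-biased list had a median of -0.52 with vector and 2.43 with FH over 22 genes, and a called positive difference in 3. Among the male-biased genes, the difference in Serpina1e was -8.13, held its call in 4 of 16 alternatives, and stood at -0.36 (edgeR adjusted p = 0.750) without ob/ob vector replicate 2. Without that library Cyp4a12b stood at -1.93 in place of -6.09, losing its call, and Slco1a1 at -2.43 in place of -6.34, keeping it. Mup14, a major urinary protein gene outside this list, stood at -2.32 in place of -5.72 and lost its call. Some female-biased genes rose in the vector contrast as well. Cyp2b9 stood at 10.10 there beside 7.29 with FH, Cyp2b13 at 12.05 beside 8.73, Cyp2a4 at 8.27 beside 7.08 and Hao2 at 10.97 beside 9.42, differences that were not called (adjusted p from 0.482 to 0.879). Sult2a1 stood at -2.82 beside 7.77 and Sult2a2 at -1.74 beside 8.14, and neither difference was called (adjusted p = 0.494 and 0.160). How much of the sex-biased pattern goes with sex and how much with obesity cannot be told apart in the FH libraries.

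**Figure D4:**
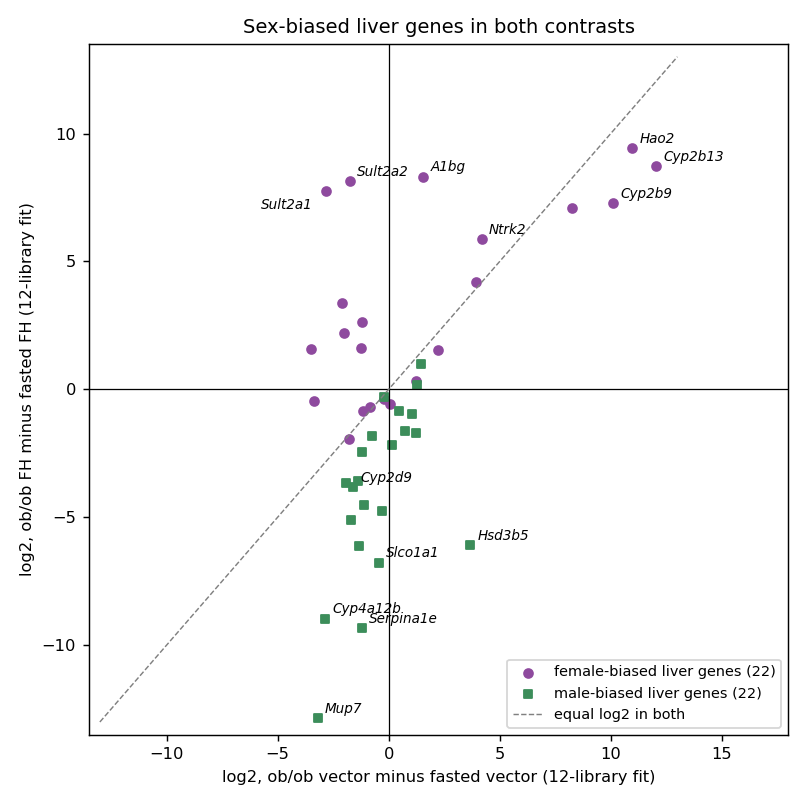
Log2 fold change of ob/ob minus fasted libraries with the vector (x axis) and with FH (y axis), both from the 12-library model, for 22 female-biased and 22 male-biased liver genes; the dashed line marks equal values. Cyp2b9, Cyp2b13 and Hao2 are high in both contrasts, while Mup7 and Serpina1e lie lower with FH (-12.84 and -9.34) than with the vector (-3.18 and -1.22). The difference was not called for Mup7, and for Serpina1e it rests on ob/ob vector replicate 2 (-8.13, and -0.36 without that library).

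Detoxifying enzymes did not move as one class. Of 18 genes of xenobiotic P450 metabolism 11 were lower and 4 higher (median -0.74). Por, the reductase that feeds electrons to these enzymes, stood at 1100, 996 and 1160 CPM in the fasted and at 202, 199 and 216 CPM in the ob/ob libraries, a 5.29-fold fall (log2 -2.40, SE 0.11, edgeR adjusted p = 1.51e-07). Cyp2e1, the ethanol-oxidising P450, fell 2.54-fold and the xenobiotic receptors Nr1i2 and Nr1i3 1.75-fold and 2.02-fold, while Cyp2c70, which makes muricholic acid, rose 15.7-fold. Of 20 NRF2 targets and glutathione transferases 13 were higher and 1, Osgin1 (-0.42), was lower (median 0.93). The count of lower genes was 0 on library totals, with 12 libraries and without ob/ob FH replicate 3. Gstm3 went from 4.56, 13.3 and 8.24 CPM to 357, 420 and 598 CPM (log2 5.71), Gstm1 rose 3.15-fold and Gstm2 5.96-fold. In bile acid metabolism 11 of 18 genes were lower and 2 higher (median -0.44), with 7 lower on library totals, without fasted FH replicate 2 or without ob/ob FH replicate 3. Cyp7b1, a male-biased enzyme of the acidic pathway, fell 11.5-fold, and the sterol exporters Abcg5 and Abcg8, which overlap each other on opposite strands, fell 1.89-fold and 2.16-fold.

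Of 22 apolipoprotein and lipoprotein genes 7 were higher and 5 lower (median 0.07), shares near those over all genes (26.9% and 24.7%), so the count is no result about this group. Apoa1, the main protein of HDL, stood at 12400, 9440 and 11900 CPM in the fasted and at 5630, 4480 and 4600 CPM in the ob/ob libraries (log2 -1.20, SE 0.17, edgeR adjusted p = 2.09e-04). Apom, its sphingolipid-carrying partner, fell 3.14-fold, while Pltp, which transfers phospholipid, rose 5.47-fold and Vldlr, a receptor that fatty liver gains, 3.99-fold. Of 20 acute phase proteins 12 were higher and 3 lower (median 0.49). Saa1, a serum amyloid, stood at 18.4, 17.9 and 31.0 CPM against 105, 151 and 138 CPM, a 5.82-fold rise. Saa2 rose 10.9-fold, Lcn2, an iron-trapping lipocalin, by 3.91 on the log2 scale (4.53 without fasted FH replicate 1) and Orm2 by 3.75 (4.54 without fasted FH replicate 3). Of 15 genes of the growth hormone and IGF axis 5 were lower and 3 higher (median -0.27), with 5 higher on library totals. Beside the shares over all genes, that count is no result about the axis either. Igf1 fell 2.04-fold from 559, 559 and 599 CPM to 410, 223 and 208 CPM, Igfbp3 rose 2.99-fold and Stat5a 2.82-fold. Lepr, the leptin receptor, stood at 25.0, 14.3 and 17.9 CPM against 2.78, 2.99 and 3.05 CPM, a 6.46-fold fall. Stress genes were likewise split, with 7 of 16 ATF4 targets higher and 5 lower (median 0.30, 4 higher with 12 libraries) and 2 of 19 endoplasmic reticulum chaperones, Pdia6 (0.34) and Edem1 (0.35), higher and 9 lower (median -0.25). The shares over all genes were 26.9% higher and 24.7% lower. Asns, which makes asparagine, fell 9.14-fold, Gdf15, a stress hormone, rose 2.76-fold, and Herpud1 of the chaperone list fell 2.13-fold. The chaperone counts moved with the setting, to 4 higher and 5 lower on library totals, to 5 lower without ob/ob FH replicate 2, and to 0 or 1 higher with 12 libraries, with the replicate block or without any single library other than fasted FH replicate 2.

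Markers of macrophages, endothelium, stellate cells, lymphocytes and neutrophils were higher in the ob/ob FH than in the fasted FH libraries. In bulk RNA, more cells of a type and more RNA per cell cannot be told apart, nor, if hepatocytes were isolated, can carry-over of other cells. Sums of markers take every listed gene found, so the Kupffer cell sum holds Vsig4 and the red blood cell sum Alas2, which are not autosomal. The vector libraries give the levels in the other groups. On library totals, Kupffer cell markers summed to 181 to 193 CPM in the fasted FH libraries, beside 531 to 792 in ob/ob FH, 406 to 697 in fasted vector and 351 to 580 in ob/ob vector. Endothelial markers summed to 179 to 217 CPM in the fasted FH libraries, beside 418 to 540, 556 to 708 and 431 to 553 in the same order, and stellate cell markers to 132 to 238 beside 299 to 415, 453 to 549 and 445 to 522. Monocyte-derived macrophage markers summed to 37.9 to 46.5 beside 127 to 206, 151 to 224 and 237 to 287. For these lists the fasted FH libraries were the low ones. The ob/ob FH libraries were below the fasted vector libraries for endothelial and stellate markers. They were below the ob/ob vector libraries for stellate and monocyte-derived macrophage markers. Lymphocyte and neutrophil sums were also lowest in fasted FH, and neutrophil sums were highest in ob/ob FH (8.79 to 16.2, beside 5.57 to 8.14 in ob/ob vector). On TMM-scaled totals, the summed level of 12 Kupffer cell markers ran from 192 to 204 CPM in the fasted and from 524 to 730 CPM in the ob/ob libraries, and 10 of 11 tested autosomal genes were called higher (median 1.72). Clec4f, a lectin of Kupffer cells, stood at 43.7, 45.5 and 43.9 CPM against 128, 158 and 134 CPM (log2 1.66, SE 0.11, edgeR adjusted p = 9.25e-07), and Csf1r, the receptor macrophages need to live, rose 4.49-fold. The exception was Cd163 (-0.15, adjusted p = 0.383, and 0.039 on library totals). All 10 markers of monocyte-derived macrophages were higher (median 2.30), among them Cd68 4.84-fold, Lgals3 4.61-fold and Lyz2 3.07-fold. Mmp12 of this list passed the filter only through the ob/ob libraries and could only be called higher, so it adds nothing to that count. The sum of the markers rose from 40.3 to 49.1 CPM up to 125 to 190 CPM. All 12 markers of sinusoidal endothelium were higher (median 1.21, sums of 188 to 231 against 413 to 489 CPM), with Cdh5, a junction protein, at 11, 9.98 and 10.6 CPM against 33.0, 40.5 and 36.6 CPM. Of 11 stellate cell markers 8 were higher (median 0.92, sums of 140 to 258 against 295 to 376 CPM), with Acta2, a sign of activation, 6.66-fold and the retinol enzyme Lrat 3.03-fold higher. Of 12 lymphocyte markers 10 were higher (median 2.12, sums of 11 to 15.2 against 40.8 to 79.1 CPM), led in level by the plasma cell genes Igkc, Ighm and Jchain. Neutrophil markers summed to 0.501 to 1.56 against 8.68 to 14.9 CPM over all 8 listed genes. Of these, 3 passed the filter and were higher. S100a8 rose by 4.05 on the log2 scale (5.11 without fasted FH replicate 1, 3.45 without replicate 3), S100a9 by 3.53 and Ngp at least 11.9-fold. Ngp had 0 counts in the fasted libraries, so it passed the filter only through the ob/ob libraries. That all 3 were higher is therefore not a result by itself. The defining Ly6g, Retnlg, Mpo, Elane and Camp had at most 24 counts in any library. Hepatocyte markers summed to 112000 to 121000 against 108000 to 131000 CPM, with Ttr higher (log2 1.00), Apoa1 and Ahsg (-0.93) lower and Alb not called (0.12). On library totals these sums were 104000 to 114000 in fasted FH and 117000 to 133000 in ob/ob FH. With the vector they were 52900 to 69800 in fasted and 60600 to 74400 in ob/ob libraries. Of 7 cholangiocyte markers 3, Spp1 (1.58), Tspan8 (1.19) and Krt7 (1.30), were higher and Krt23 (-2.81) was lower, and Krt7 lost its call with 12 libraries (adjusted p = 0.0776) and without ob/ob FH replicate 3 (0.0572). Red blood cell genes, a sign of blood left in the tissue, summed to 160 to 242 against 160 to 229 CPM, with 1 of 4, Hbb-bt (0.69), higher and 3 higher without fasted FH replicate 3. On library totals their sums were 151 to 224 in fasted FH and 177 to 248 in ob/ob FH. With the vector they were 662 to 857 in fasted and 371 to 459 in ob/ob libraries.

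**Figure D5:**
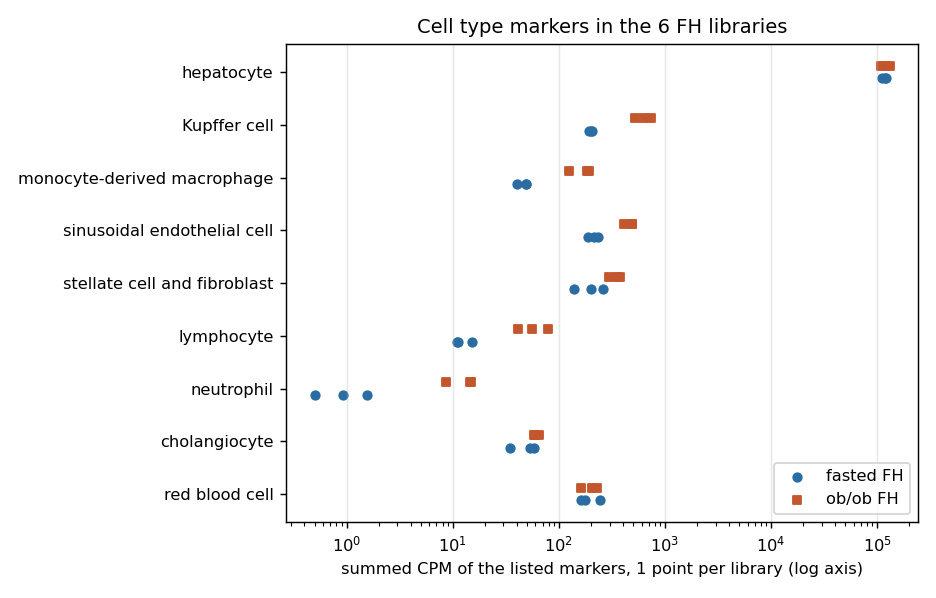
Summed CPM of the listed markers of 9 cell types (x axis, log scale) in each of the 3 fasted FH and 3 ob/ob FH libraries (1 point per library). Kupffer cell, macrophage, endothelial, stellate, lymphocyte and neutrophil sums lie higher in every ob/ob library than in any fasted library, while hepatocyte and red blood cell sums overlap. The Kupffer cell and red blood cell sums include Vsig4 and Alas2, which are not autosomal.

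Gene groups that such cells carry were higher along with these markers, and the part of the cell mixture in them was not tested. Of 17 matrix genes 14 were higher and 0 lower (median 1.61). Col1a1, a fibrillar collagen, stood at 1.83, 1.5 and 2.26 CPM in the fasted and at 22.1, 25.6 and 23.4 CPM in the ob/ob libraries (log2 3.65, SE 0.16, edgeR adjusted p = 1.06e-07), Col3a1 rose 11.1-fold, Col5a2 6.12-fold and Col1a2 6.02-fold. Of 11 genes of antigen presentation 10 were higher (median 0.88), led by the class II genes H2-Aa, from 12.4, 10.7 and 13 CPM to 64.4, 97.8 and 72.3 CPM, H2-Eb1 (6.05-fold), H2-Ab1 (5.21-fold) and Cd74 (5.35-fold). Of 22 interferon-stimulated genes 14 were higher and 1, Mx2 (-0.78), was lower (median 0.78). The count of lower genes was 0 on library totals, with 12 libraries, and when fasted FH replicate 1 or ob/ob FH replicate 3 was left out. Gbp2, a GTPase induced by interferon gamma, rose 4.95-fold, Oasl2 2.98-fold and Igtp 2.04-fold. Of 20 cell cycle genes 18 were higher and 0 lower (median 2.43). Mki67, an antigen of dividing cells, stood at 0.611, 0.465 and 0.46 CPM against 3.92, 6.35 and 6.30 CPM (log2 3.43), Top2a rose 16.6-fold and Ccnd1, a cyclin of the G1 phase, from 8.06, 9.82 and 8.57 CPM to 58.0, 56.0 and 73.9 CPM. Mitotic genes such as Cdc20 (5.33) and Ccnb1 were near 0 in the fasted libraries, and Ccnb1, at 5.45, moved to 6.15 without fasted FH replicate 2 and 4.77 without replicate 3. Members that low in the fasted libraries could pass the filter only through the ob/ob libraries and could only be called higher. The count of 18 higher genes is therefore in part set by the filter.

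The lists varied in how many members differed between the FH and the vector contrast, and no test compares the lists with each other. The difference between the FH and the vector contrast was called positive for 12 of 12 endothelial, 9 of 11 Kupffer cell, 11 of 17 matrix, 8 of 20 cell cycle, 5 of 11 stellate cell, 4 of 11 antigen presentation, 3 of 10 monocyte-derived macrophage, 0 of 12 lymphocyte and 0 of 7 cholangiocyte genes, and negative for 0 of each, beside 4.82% positive and 3.71% negative over all genes. The endothelial median was -0.47 with vector and 1.14 with FH in that model, and the Kupffer cell median -0.07 and 1.65. The lymphocyte median was 0.30 with vector and 2.05 with FH, with a median difference of 1.67 although no member was called. In Cdh5 the vector contrast was -0.28 and the FH contrast 1.73. Of 22 cholesterol genes the difference was positive in 1 (Mvd) and negative in 1 (Stard4), with medians of 2.00 and 2.01, and of 21 fatty acid synthesis genes positive in 2, Acly and Scd2, with medians of 1.57 and 2.38. Gene by gene, Srebf1 stood at 3.50 with vector and 3.65 with FH and Fdps at 4.17 and 4.21, while Acly stood at 1.95 and 3.19 (difference 1.24, edgeR adjusted p = 0.00641). Mitochondrial fatty acid oxidation had medians of -0.21 and -0.66, with 1 gene of 19, Eci2 (-1.24), called for the difference. PPAR-alpha targets had medians of -0.03 with vector and -0.68 with FH, with 1 of 20 called positive and 2 negative. In autophagy 4 of 33 genes had a called negative difference and 0 a positive one, namely Rb1cc1 (-1.10), Atg2b, Uvrag and Gabarapl1 (-0.71). Of 6572 genes called with FH in the 6-library fit and tested in the 12-library model, 1859 were called with the vector in that model. Of these, 1767 had the same direction. The fits differ in their libraries, and the vector libraries hold fewer counts. The overlap is therefore no measure of what is particular to FH. The count of genes with a called difference, 1232 in all, ran from 553 without ob/ob FH replicate 2 to 1585 without ob/ob vector replicate 2, and the sex markers differ in the FH contrast only. The part that the sex markers, and the differences in Malat1, Alb and depth between FH and vector libraries, have in these values was not tested.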

How the data were processed

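RNA of mouse liver was sequenced with Illumina Stranded mRNA Prep, per the labels' protocols. The submitters' processing notes name STAR 2.7.11a and GRCm39; no counting program or strand mode is named there. The deposited table holds the authors' raw counts per gene symbol for 12 libraries, and nothing in it was normalized. Of 56441 gene names 50662 matched GENCODE M21 or RefSeq (GRCm38) by symbol, which gave each gene's chromosome. No coordinates of counted genes are printed.

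The main test was edgeR 4.0.16 in R 4.3.3 (quasi-likelihood, TMM, filterByExpr with a minimum of 10 counts and 15 in total) on the 6 FH libraries, with Benjamini-Hochberg adjustment over all 13380 genes tested. A model of all 12 libraries in 4 groups gave the vector contrast and the difference between contrasts. Log2 values set beside vector values come from that model. The 6572 FH calls set beside vector calls come from the fit of the 6 FH libraries. The SE is the size of the log2 change divided by the root of the test's F. Alternatives were DESeq2 1.42.0, library totals, RLE size factors, TMM from autosomal genes, no filter, all 12 libraries, a replicate block, and each library left out in turn.

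The genes named were Fh1 and a fixed panel of metabolic and autophagy genes, up to 4 called members with the smallest adjusted p in each of 31 pathway and 11 marker lists, and the 12 largest rises and falls among calls whose higher group averaged 5 CPM or more and whose groups did not overlap. Some genes that this rule takes in are not reported here. Another 45 genes were added after their values were seen, as were the few members named to complete a small count. The members and lists were chosen with earlier results of these data known. Deviations of libraries with equal replicate numbers correlated at -0.035, 0.022 and 0.116, beside -0.109 to 0.081 for unequal numbers. With 3 libraries per group these values cannot exclude a pairing. Replicates differed beyond counting noise (chi-square per degree of freedom 22.01 to 34.62). On simulated counts for the FH comparison (13189 genes, 200 changed) edgeR recovered 70.3% of 2-fold and 95.4% of 4-fold changes, and 8.2% of its calls were false. For the difference between contrasts (14603 genes) it recovered 17% and 73%, with 8.16% false. Each simulation changed only 200 genes, while in the FH comparison 51.5% of autosomal genes were called. These rates therefore need not hold for the data.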

Additional observations from a re-analysis of the deposited data

Results flagged for a closer look

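The results in this section were picked out because the difference between ob/ob and fasted livers was of another size with FH than with the vector, by the test of the difference itself (edgeR, 12 libraries, adjusted over all genes tested). Values are that difference on the log2 scale, FH contrast minus vector contrast. Sex markers differ between the groups in the FH contrast and not in the vector contrast, and the FH libraries stand apart from the vector libraries in Malat1, long noncoding RNA, Alb and depth. The part of either in these values was not tested. Fh1 stood at 1.13, a call that held in 11 of 16 alternatives.

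The difference was positive for cell-type markers and the genes that go with them. A positive difference need not be a rise with FH, since a fall with the vector adds to it. Cd163 was not called in the FH contrast (-0.15, edgeR adjusted p = 0.383). The endothelial list had medians of -0.47 with vector and 1.14 with FH, and the red blood cell list -1.04 and 0.16. Among macrophage markers the difference was 2.18 for Clec4f, 1.56 for C1qa, 1.75 for C1qb, 1.64 for C1qc, 2.16 for Csf1r, 1.86 for Cd163, 1.54 for Lyz2 and 2.05 for Cd68. Endothelial markers gave 1.69 for Oit3, 2.00 for Pecam1, 2.01 for Cdh5 and 1.56 for Dnase1l3. Stellate cell markers gave 1.51 for Lrat, 1.15 for Reln and 1.51 for Pdgfrb, collagens 1.51 for Col1a1, 1.49 for Col1a2, 1.25 for Col3a1 and 1.81 for Col5a2. The class II genes gave 1.75 for H2-Aa, 1.68 for H2-Ab1, 1.63 for H2-Eb1 and 1.74 for Cd74, and interferon genes 1.39 for Oasl2 and 0.97 for Igtp. S100a8 stood at 3.18, S100a9 at 2.85 and Hbb-bt at 1.86. In the cell cycle list the difference was 3.38 for Cdc20, 1.16 for Mcm6 and 4.13 for Ccnb1.

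Sex-biased genes and urinary proteins gave the widest values. The difference was -8.13 for Serpina1e, -6.09 for Cyp4a12b, -5.72 for Mup14, -6.34 for Slco1a1, -4.46 for Cyp4a12a, -3.45 for Mup20, -2.23 for Cyp2d9 and 3.81 for Cyp2b10. Without ob/ob vector replicate 2, Serpina1e stood at -0.36, Cyp4a12b at -1.93, Mup14 at -2.32 and Slco1a1 at -2.43. Eif4ebp3 stood at -6.55.

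In metabolism the difference was 1.24 for Acly, 1.87 for Mvd, 1.25 for Slc16a6 and 2.07 for Pdk4. It was -1.24 for Eci2, -2.50 for Cyp4a31, -2.10 for Cyp4a32, -1.50 for Gys2, -1.24 for Abcg5 and -1.34 for Abcg8. Autophagy and lysosome genes gave -1.10 for Rb1cc1, -0.71 for Gabarapl1 and -0.81 for Npc1. Secreted proteins gave 3.10 for Saa1, 3.82 for Saa2 and 1.62 for Igfbp3. Clock genes gave 2.85 for Arntl, 1.61 for Nfil3, -3.51 for Per3 and -1.31 for Nr1d2.

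Over the 16 alternatives the call held in 4 for Serpina1e and Igtp, in 5 for Mup14, Gys2 and Gabarapl1, in 6 for Mvd, Saa2 and Nfil3, in 7 for Col3a1, Per3 and Pdk4, in 8 for Cyp4a12b, Slco1a1, Npc1, Mcm6 and Arntl, in 11 for Fh1 and Reln, in 12 for H2-Eb1 and in 15 for Slc16a6, Cdc20 and Pdgfrb. It held in all 16 for the others named in this section.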

How the results depend on the processing

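Of 220 named genes 213 were called, 199 of them in the same direction under every alternative run and 208 without each single library. The total of called genes was 6592, ran from 5863 to 7079 over the other models and from 5370 to 6261 without a library. On library totals 1848 genes were called lower in place of 3157, Fh1 stood at 0.0016 in place of -0.19 and Cd163 at 0.039. Sqstm1 stood at -0.022 with 12 libraries and ran from -0.060 (without fasted FH replicate 2) to 0.12 (without fasted FH replicate 3) over libraries left out, and Cidec from -0.095 to 0.67 (without fasted FH replicates 2 and 1). None of these 4 genes was called in any of the settings named here. The cause was not tested.

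The difference between the FH and vector contrasts was the least stable result. Its 1232 genes ran from 553 to 1585 without a library, its positive ones from 359 to 840 and its negative ones from 180 to 745. The total fell by over 1.5 times without ob/ob FH replicate 2 (553) or 3 (622), fasted FH replicate 2 (673), fasted vector replicate 3 (745) or ob/ob vector replicate 1 (767). Negative differences numbered 346 on library totals, and positive ones 1053 with no filter on low counts. DESeq2 called 1631. The libraries of a group number 3, which limits the precision of every difference.

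Whether equal replicate numbers pair the samples is not given by the labels and not settled by the correlations above. With the number as a replicate block 6648 genes were called for FH and 1091 for the difference. Of the named calls of the FH contrast 1, that of Pik3c3, was lost. Named calls of the difference were lost as well, among them Serpina1e, Mup14, Slco1a1, Mvd, Gys2, Saa2, Igtp, Col3a1 and Pdk4.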
